A study of Mus musculus with 4 samples.

Results

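The MYC, MAX and MXD network is the set of transcription factors built around MYC proteins, their partner MAX and the antagonists that compete for MAX. All probe sets whose platform symbol was Myc, Mycn, Mycl, Max, Mxd1, Mxi1, Mxd3, Mxd4, Mnt or Mga were taken, which gave 27 probe sets of 10 genes among 45101 probe sets and 18193 named genes. They were read on 4 single-colour arrays of mouse bone marrow RNA, 2 from mice with MN1 leukemia and 2 from mature cells of healthy mice, all of strain C57BL/6J. For the leukemic group, marrow was taken 4 days after 150 mg/kg fluorouracil and kept for 48 hours with interleukin-6, interleukin-3 and stem cell factor. It was infected with an MN1 virus from producer cells, sorted for GFP, and transplanted with helper marrow into syngeneic mice given 750 cGy. The labels do not say that the harvested leukemic marrow was sorted, so recipient and helper cells can be in it. The mature group is labelled Gr1/Mac1, the sort antigens of granulocytes and monocytes. The labels give no age, no number of animals behind an array and no normal immature cells, so an effect of leukemia and one of immaturity cannot be told apart.

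MYC, MYCN and MYCL are basic helix-loop-helix leucine zipper proteins that bind DNA as dimers with MAX, mostly at E-boxes, and raise transcription of growth genes. MXD proteins, MXI1 and MNT also pair with MAX but recruit SIN3 and histone deacetylases, and MGA carries MAX into a Polycomb complex. In blood formation MYC proteins are known for driving progenitor growth, and MXD1 for its rise as granulocytes mature.

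In leukemic marrow the genes of 2 MYC proteins were higher, and MAX and 2 of the MXD-type antagonists were lower. Mycn was higher by 8.07 on the log2 scale (SE 0.30) and Myc by 4.60 (SE 0.27). Mxd1 was lower with -3.31 (SE 0.26), Max with -2.51 (SE 0.25) and Mxi1 with -1.41 (SE 0.22). Mga was higher by 1.79 (SE 0.29), while Mxd3, Mxd4 and Mnt did not pass the test and Mycl was too dim to be tested. Values are differences of log2(signal + 16), leukemic less mature, taken from the gene's probe set with the highest mean signal, and understate the change of dim genes. The test was limma over 12378 genes with Benjamini-Hochberg adjustment and a threshold of 0.05. Of 9 tested members 6 passed, 3 in each direction, where 43.4% of all genes tested passed, 27.5% higher and 15.9% lower. With 9 members, and Mycn tested through its leukemic arrays alone, the count is given beside that background as a description.

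**Figure D1:**
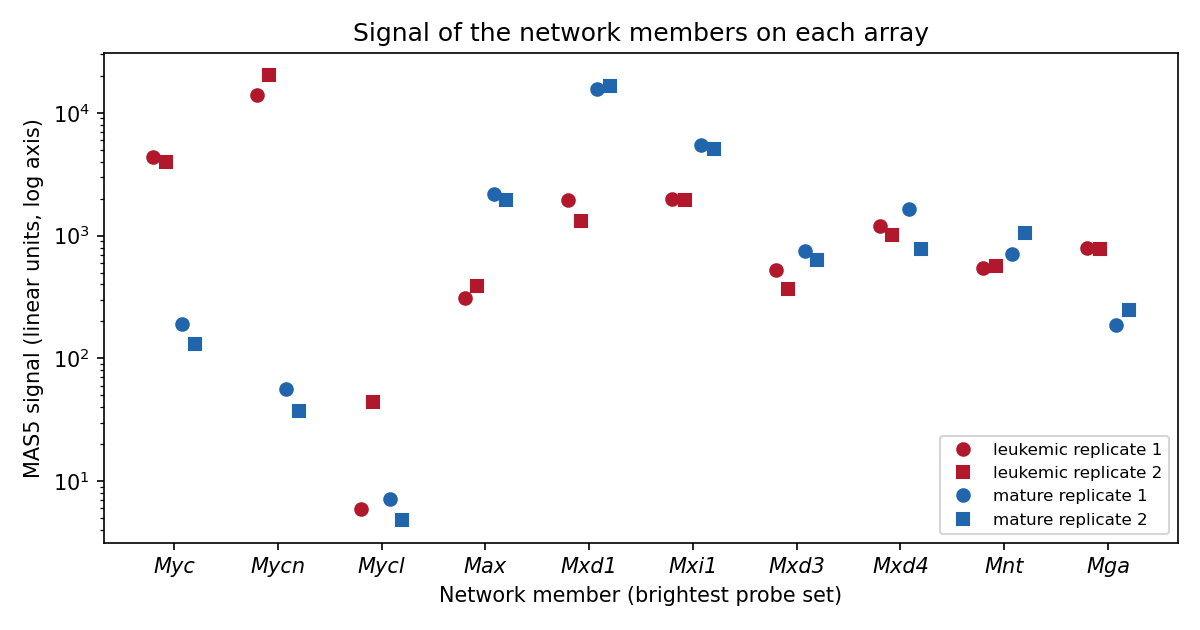
MAS5 signal (linear units on a log axis) of the brightest probe set of each of the 10 members, 1 point per array, with leukemic arrays in red and mature arrays in blue. Myc, Mycn and Mga passed the test as higher and Max, Mxd1 and Mxi1 as lower, while Mxd3, Mxd4 and Mnt did not pass. Mycl was too dim to be tested.

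Some facts of the arrays touch these values. The number of arrays limits the precision. The p-values rest on the spread between 2 arrays a group, moderated by that of all other genes tested. Mn1 itself was dim, at 17.7 and 92.6 in leukemic against 3.92 and 12.1 in mature arrays, and whether its probes match the viral insert is not known. Mature replicate 2 stood apart in sex-linked genes, with Xist at 114 against 7138 to 19642 elsewhere and Eif2s3y at 4409 against 2.51 to 3.01. All 6 members that passed also passed without that array and without each other array in turn. For actin the 3′ probe set was 3.28 and 3.09 times the 5′ one in leukemic arrays, and 1.32 and 1.39 times in mature ones. Summed over 10 measured neutrophil markers of 11 listed, the signal was 451626 and 260596 in leukemic and 441142 and 345375 in mature arrays. Of these 10, 4 were lower and none higher, and the CD11b gene Itgam read 584 and 306 in leukemic against 4288 and 4407 in mature arrays. Stem and progenitor markers (7 of 8 measured) summed to 26213 and 26805 against 1007 and 1360, and all 7 were higher. Among them Adgrg1 and Msi2 had mature means of 22.8 and 44.9, under the filter of 47.6 on mean signal. Both were tested through their leukemic arrays alone, so that count is a description. Erythroid markers (8 of 10) summed to 25730 and 42124 against 8249 and 3696, with 5 higher of 7 tested. Mast cell and basophil markers (6 of 7) summed to 53256 and 67557 against 10670 and 13557, and megakaryocyte markers (6 of 7) to 3748 and 3947 against 590 and 700.2. Monocyte and macrophage markers (7 of 8) ran the other way, at 5833 and 4548 against 37592 and 24656, with 6 lower and 1 higher of 7. Of the lower ones, Fcgr1 had a leukemic mean of 37.1, under the filter, and was tested through its mature arrays alone. Plasma cell markers (7 of 7) summed to 7824 and 6505 against 18805 and 12808, and T and NK markers (5 of 8) to 116 and 113 against 454 and 486. B lymphoid markers (6 of 7) summed to 800 and 580 against 781 and 487, and eosinophil markers (5 of 6) to 1918 and 1053 against 3765 and 1125. The marker counts are to be read beside the 27.5% higher and 15.9% lower among all genes tested. The part of these cell types and of RNA quality in the results below was not tested. In bulk RNA, fewer cells of a type and less RNA per cell cannot be told apart.

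Mycn encodes N-MYC, the family member best known from the nervous system and also made by blood stem cells. Its brightest probe set, 1425923_at, read 13960 and 20231 (leukemic) against 56.7 and 37.5 (mature). The groups were far apart, at 17096 ± 4434 (SD, n = 2) against 47.1 ± 13.6. The mature mean was just under the filter of 47.6 on mean signal, so the gene entered through its leukemic arrays alone. The size of the difference depends on a dim group. The calls of Mycn, alone and in the counts of members, are therefore descriptions. The dimmer 1417155_at read 529 and 1121 against 22.6 and 34.0, again with both leukemic arrays above both mature arrays. Its mature mean of 28.3 was also under the filter, so this probe set too was tested through its leukemic arrays alone and had to differ. Its fitted difference of 4.16 (SE 0.45) is given as a description. The third probe set, 1425922_a_at, read 47.0 and 121 against 57.0 and 118. There replicate 1 was low and replicate 2 high in both groups, and the difference was -0.09 (95% interval -1.43 to 1.25). With the mean of the probe sets the gene's value was 4.05.

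Myc encodes c-MYC, the member made in most dividing cells, and had 1 probe set. It read 4334 and 4014 (leukemic) against 189 and 130 (mature). The leukemic arrays differed little from each other and were 24.2 times the mature ones on the scale of signal + 16 (95% interval of the log2 value 3.95 to 5.24; limma adjusted p = 1.5e-04). Mycl encodes L-MYC, and its 3 probe sets all lay below the filter. The highest single reading among them was 44.1, in leukemic replicate 2 at 1422088_at, where leukemic replicate 1 read 5.92 and the mature arrays 7.21 and 4.80. At 1422087_at the arrays read 4.16 and 17.2 against 13.6 and 17.9, and at 1434777_at 9.73 and 8.22 against 6.93 and 6.24. Without the filter Mycl did not pass (0.72, SE 0.54, limma adjusted p = 0.40). The Mycn and Myc signals came from different probes, so their levels cannot be ranked.

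Max encodes the partner that MYC proteins and their antagonists both need for binding DNA. Its single probe set, 1423501_at, read 312 and 389 (leukemic) against 2202 and 1940 (mature). The partner gene thus ran opposite to Myc and Mycn, at 351 ± 54.5 against 2071 ± 186 (SD, n = 2), a 5.71-fold lower value on the scale of signal + 16. The limma adjusted p was 7.3e-04, and the 95% interval of the log2 value ran from -3.11 to -1.91. Only 3.36% of genes tested lay lower than Max in rank of log2 fold change.

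The promoters of members that moved most, and of those holding an E-box, are shown because the network's proteins bind E-boxes and can act on one another's genes. The RefSeq promoter table of build GRCm38.p6 matched 9 of 10 members, all but Myc, with 3 starts for Mxi1 and 1 for each other. Shown are 250 bases before to 30 after the start of transcription, 5′ to 3′ on the gene's strand, with motif matches in capitals.
Mycn, chr12:12941807-12942086, minus strand: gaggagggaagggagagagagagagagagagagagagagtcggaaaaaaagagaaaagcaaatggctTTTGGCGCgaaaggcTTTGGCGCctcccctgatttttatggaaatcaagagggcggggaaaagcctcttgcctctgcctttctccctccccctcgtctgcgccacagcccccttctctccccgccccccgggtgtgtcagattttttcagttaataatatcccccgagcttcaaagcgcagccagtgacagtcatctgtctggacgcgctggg
Max, chr12:76962219-76962498, minus strand: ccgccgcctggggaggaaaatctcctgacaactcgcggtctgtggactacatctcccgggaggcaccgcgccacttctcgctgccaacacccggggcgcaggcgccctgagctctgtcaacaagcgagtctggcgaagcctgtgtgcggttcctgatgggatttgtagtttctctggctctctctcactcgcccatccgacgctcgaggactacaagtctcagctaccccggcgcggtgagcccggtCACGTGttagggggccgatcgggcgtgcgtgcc
Mnt, chr11:74830674-74830953, plus strand: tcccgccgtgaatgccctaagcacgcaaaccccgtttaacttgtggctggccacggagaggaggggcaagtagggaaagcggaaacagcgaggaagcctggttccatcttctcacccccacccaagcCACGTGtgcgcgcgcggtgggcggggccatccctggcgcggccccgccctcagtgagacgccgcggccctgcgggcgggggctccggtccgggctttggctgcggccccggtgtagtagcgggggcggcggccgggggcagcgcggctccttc
Mxd4, chr5:34187681-34187960, minus strand: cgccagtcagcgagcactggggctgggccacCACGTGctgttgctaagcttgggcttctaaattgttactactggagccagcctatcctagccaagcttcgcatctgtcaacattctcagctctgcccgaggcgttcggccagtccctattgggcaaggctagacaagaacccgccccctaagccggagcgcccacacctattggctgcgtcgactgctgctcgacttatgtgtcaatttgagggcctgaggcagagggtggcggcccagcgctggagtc
Mxd1, chr6:86669130-86669409, minus strand: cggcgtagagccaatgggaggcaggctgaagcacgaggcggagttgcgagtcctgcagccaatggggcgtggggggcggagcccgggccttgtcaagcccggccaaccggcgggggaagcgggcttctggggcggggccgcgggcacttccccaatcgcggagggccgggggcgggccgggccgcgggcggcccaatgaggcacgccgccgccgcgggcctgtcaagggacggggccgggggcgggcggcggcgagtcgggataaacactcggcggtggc
On both strands, 5 motifs were searched and none of the matches shown overlapped another. They were the E-box CACGTG, the E2F sites TTTGGCGC and TTTCCCGC, the C/EBP site TTGCGCAA and the PU.1 site GAGGAAGT. In Max the E-box began 3 bases before the start, in Mnt 123 and in Mxd4 219. Mycn held TTTGGCGC at 183 and at 168 bases before the start. None of these letters occurred in the windows of Mxd1, Mycl, Mxd3, Mga or any start of Mxi1. Of all 32851 promoters in the table, 6.79% held CACGTG, 0.469% TTTGGCGC, 1.01% TTTCCCGC, 0.18% TTGCGCAA and 2.82% GAGGAAGT. Counted by gene, 3 of 9 members held an E-box, against 1114 of 10060 tested genes (11.1%). The share was 12.4% of genes called higher, 11.3% of those called lower and 10.4% of the rest. A match describes the letters alone.

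Mxd1 encodes MAD1, the antagonist that rises when myeloid cells stop dividing and mature. Its brightest probe set, 1434830_at, read 1960 and 1323 (leukemic) against 15734 and 16588 (mature). Both mature arrays were high and close to each other, and the value was 9.94-fold lower in leukemic marrow on the scale of signal + 16 (limma adjusted p = 3.7e-04). A second probe set, 1455104_at, read 534 and 286 against 1803 and 3599 and was lower as well, with -2.65 (SE 0.42, limma adjusted p = 0.0040 over probe sets). The dimmest, 1422002_at, read 103 and 9.04 against 204 and 242. There the groups did not overlap, but the leukemic arrays lay far apart and the value of -2.13 (SE 0.72) did not pass (limma adjusted p = 0.057; range over alternatives 0.0068 to 0.26). It passed under 6 of 14 alternatives, among them without leukemic replicate 1 (limma adjusted p = 0.011) and with the replicate number as a block (0.0143).

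Mxi1 encodes another MXD-type repressor. Its brightest probe set, 1450376_at, read 1982 and 1950 (leukemic) against 5438 and 5051 (mature). Replicates lay within a narrow range in both groups, and the leukemic value was 2.65-fold lower (limma adjusted p = 0.0027). The other, 1425732_a_at, read 65.1 and 122 against 381 and 383, a log2 value of -1.91 (SE 0.38, limma adjusted p = 0.0091 over probe sets). Without leukemic replicate 1 that probe set did not pass (limma adjusted p = 0.066; range over alternatives 8.5e-04 to 0.066).

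Mxd3 encodes a repressor of the family that is made around S phase. Its brightest probe set, 1438847_at, read 523 and 367 against 755 and 632. Both leukemic arrays were below both mature arrays, but the difference of -0.64 (95% interval -1.33 to 0.06) did not pass (limma adjusted p = 0.12). Its 3 probe sets differed. 1422970_at read 137 and 144 against 421 and 308 and passed as lower, with -1.27 (SE 0.33, limma adjusted p = 0.025 over probe sets). That call was lost without leukemic replicate 1 (0.13), without leukemic replicate 2 (0.13) and without mature replicate 1 (limma adjusted p = 0.0562; range over alternatives 0.0012 to 0.13). 1448878_at read 392 and 491 against 615 and 388, with overlapping groups and a value of -0.15 (SE 0.33).

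Mxd4 encodes the fourth MXD-type repressor, and none of its 4 probe sets passed. The brightest, 1434378_a_at, read 1188 and 1021 against 1651 and 775, so the mature arrays enclosed the leukemic ones. Its value of -0.04 had a 95% interval of -0.92 to 0.84, which leaves a change of either sign possible. The others gave -0.09 (SE 0.46), -0.68 (SE 0.35) and 1.08 (SE 0.50). At the last, 1422575_at, the leukemic arrays read 176 and 194 and the mature arrays 46.1 and 131, and it passed without mature replicate 2 (1.69, limma adjusted p = 0.022; range over alternatives 0.022 to 0.89).

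Mnt encodes a larger, widely made antagonist of MYC. Its brightest probe set, 1418192_at, read 542 and 564 against 708 and 1045. The leukemic arrays were lower than both mature arrays, and the value of -0.62 (95% interval -1.30 to 0.05) did not pass (limma adjusted p = 0.12). It passed with quantile normalization (-0.85, limma adjusted p = 0.048) and without mature replicate 1 (-0.90, limma adjusted p = 0.0293; range over alternatives 0.0015 to 0.37). The dim 1418193_at read 65.2 and 40.3 against 120 and 52.4, with overlapping groups.

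Mga encodes a large protein with a T-box besides its MAX-binding region, and was the antagonist that was higher in leukemic marrow. Its brightest probe set, 1434746_at, read 798 and 771 (leukemic) against 186 and 248 (mature). Both leukemic arrays were high, a 3.47-fold difference on the scale of signal + 16 (limma adjusted p = 0.0031). A second probe set, 1431232_a_at, read 640 and 626 against 162 and 263 and was higher by 1.54 (SE 0.33, limma adjusted p = 0.011 over probe sets). That call was lost without leukemic replicate 1 (0.078), without leukemic replicate 2 (0.0835) and with the hybridization controls described below (limma adjusted p = 0.50; range over alternatives 0.0054 to 0.50). The dim 1422646_at read 69.5 and 49.5 against 72.6 and 49.6, with a value of -0.03 (SE 0.49). Another 2 probe sets lay below the filter. 1442356_at read 22.2 and 4.07 against 4.40 and 44.0, and 1433012_at 2.93 and 3.31 against 5.48 and 10.5.

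**Figure D2:**
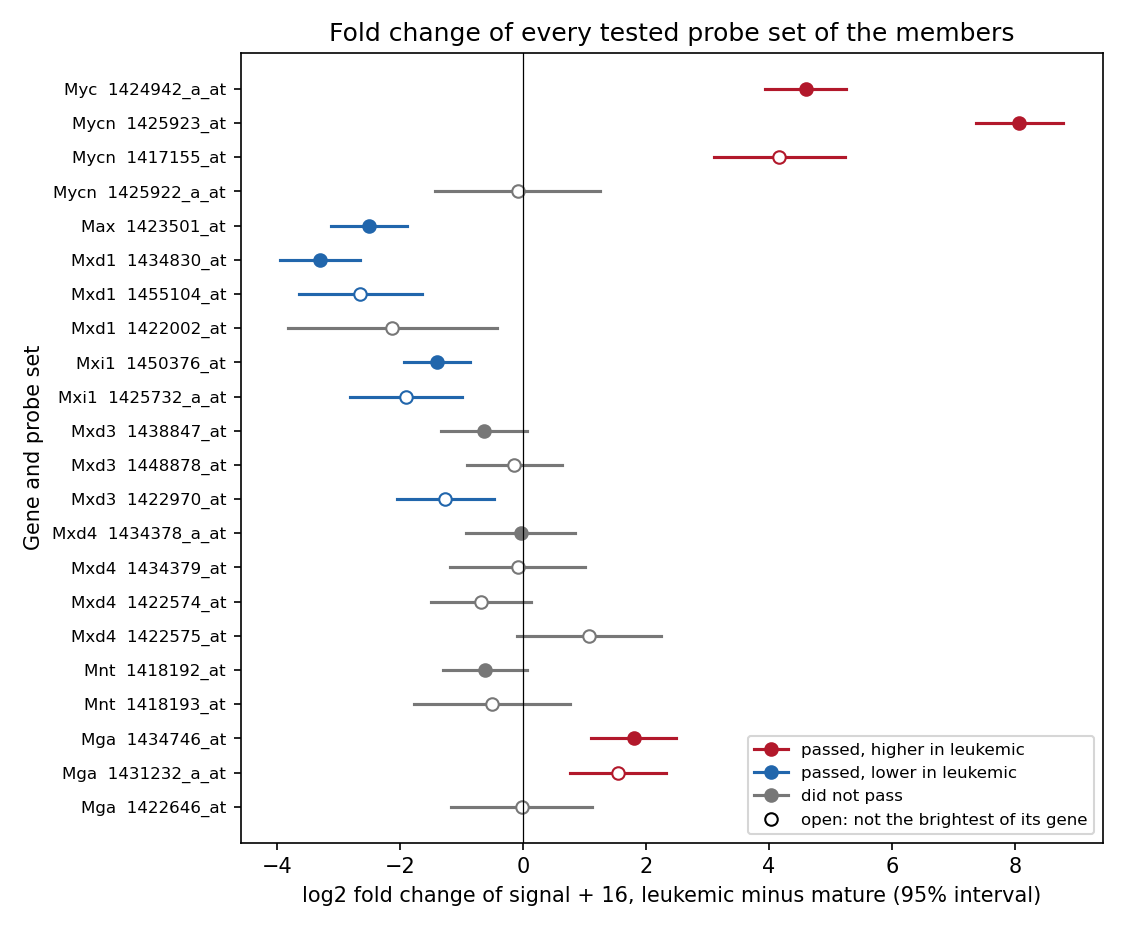
Log2 fold change of signal + 16, leukemic minus mature, of the 22 member probe sets that passed the filter on low signals, with 95% intervals from limma over all probe sets. Filled points are the brightest probe set of a gene, red passed as higher, blue passed as lower and grey did not pass. Mycn, Mga, Mxd1 and Mxd3 have probe sets on both sides of the threshold.

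When each of 27022 probe sets was tested, 22 of the 27 member probe sets were bright enough and 11 passed, 5 higher and 6 lower, where 34.9% of all probe sets passed, 21.2% higher and 13.6% lower. The kept member probe set with the lowest mean signal was 1422646_at at 60.3, and the left-out one with the highest was 1442356_at at 18.7. No member had probe sets that passed in opposite directions. Probe sets of a gene can read different parts and forms of its transcript, and the 3′ to 5′ ratios given above differed between the groups. Their part in the spread among probe sets was not tested.

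The deposited arrays share 1 target signal, and some calls of the members moved with the scaling. With quantile normalization the median log2 fold change of all genes moved from 0.28 to 0.09, with every array at the same median to -0.03, and with hybridization controls equal between the groups to -1.02. These controls had a geometric mean of 11918 and 8950 in leukemic and 4044 and 4168 in mature arrays. Under that last scaling Mycn was at 6.89, Myc at 3.32, Max at -3.80, Mxd1 at -4.64 and Mxi1 at -2.73, and all 5 passed. Mga kept its sign with 0.52 but did not pass (limma adjusted p = 0.16; range over alternatives 7.0e-04 to 0.16). Mxd3 at -1.93, Mxd4 at -1.35 and Mnt at -1.92 passed as lower, the first 2 under no other alternative. These calls are to be read beside all 12409 genes under that scaling, of which 6104 were lower and 1029 higher.

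**Figure D3:**
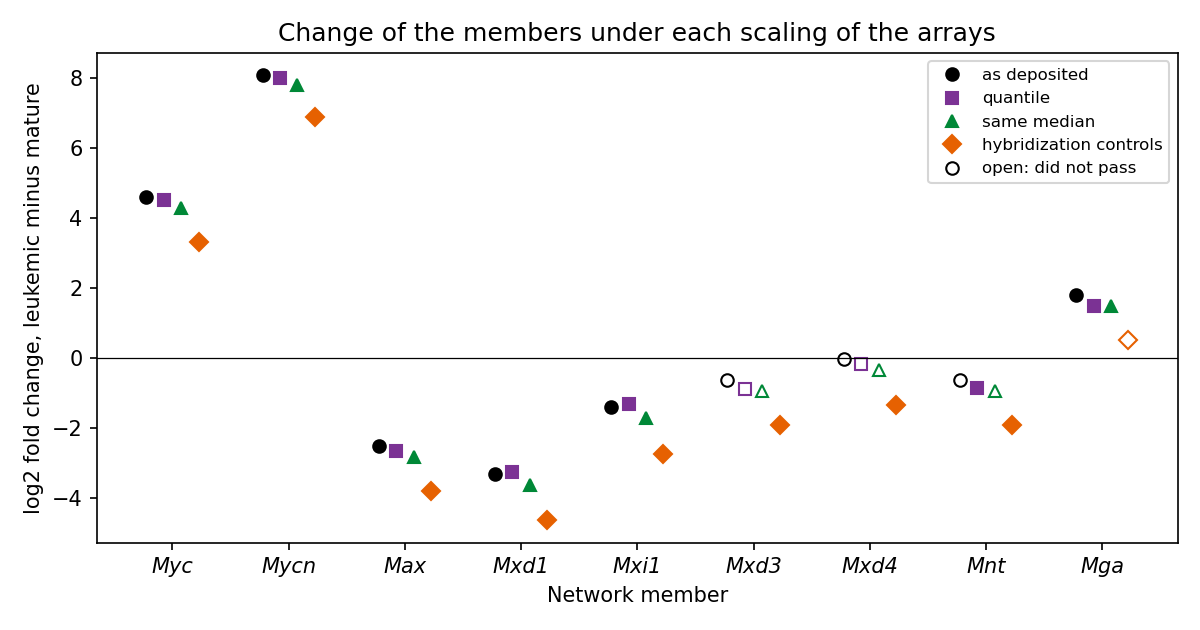
Log2 fold change, leukemic minus mature, of the 9 tested members with the deposited scaling, quantile normalization, equal medians and equal hybridization controls; open symbols did not pass. Myc, Mycn, Max, Mxd1 and Mxi1 keep sign and call under all 4, whereas Mga does not pass with the controls and Mxd3 and Mxd4 pass with them alone.

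Genes around the network were read from textbook lists of partners and targets. Their counts are to be read beside the 27.5% higher and 15.9% lower among all genes tested, whose median was 0.28. Counts with the hybridization controls are to be read beside the 1029 higher and 6104 lower of 12409 genes under that scaling. Where 5 or fewer genes of a list passed in a direction all are named, and those beyond the 2 largest were chosen after their values were seen. Of the list genes named below, Tfap4, Rrp9, Slc7a5, Cdkn2b and Ndrg2 had mature means under the filter. They were tested through their leukemic arrays alone, so their differences, calls and places in the list counts are descriptions. MGA sits with MAX in the variant Polycomb complex PRC1.6, of which 5 of 11 tested genes were higher and 1 lower, with a median of 0.31. Pcgf6, its defining subunit, read 1708 and 2032 (leukemic) against 109 and 75.2 (mature). It was higher by 4.14 (SE 0.30, limma adjusted p = 2.8e-04). E2f6, the repressor subunit that binds E2F sites, was higher by 2.21, the deacetylase gene Hdac2 by 2.05, L3mbtl2 by 1.53 and the ubiquitin ligase gene Ring1 by 1.14. Yaf2 was lower, with -1.18 (SE 0.23), a call lost without leukemic replicate 2 (limma adjusted p = 0.066; range over alternatives 3.1e-04 to 0.066).

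The SIN3 and NCoR corepressors, which MXD proteins recruit, mostly did not pass. Of 18 tested genes 3 were higher and none lower, 16.7% against the 43.4% of all genes, with a median of -0.03. The scaffold genes Sin3a (-0.02, SE 0.24) and Sin3b (-0.01, SE 0.28) differed by less than the spread between replicates. Hdac2, the histone-binding gene Rbbp7 (1.61) and Brms1l (1.54) were higher. Rbbp7 did not pass with the hybridization controls (limma adjusted p = 0.32; range over alternatives 1.8e-04 to 0.32), where 1 gene of the list was higher and 13 lower. Leaving out either mature array raised the count of genes that passed, and genes of the list were then called in both directions. The list median was -0.05 without mature replicate 1 and 0.004 without mature replicate 2.

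Of 18 tested MYC coactivators, 5 were higher and 3 lower, with a median of 0.16. In all 44.4% of the list passed, near the 43.4% of all genes. The helicase genes Ruvbl1 and Ruvbl2, whose products work in the TIP60 complex, were higher. Ruvbl1 was higher by 3.31 (SE 0.27), and Ruvbl2 read 2933 and 3034 against 730 and 733. The acetyltransferase gene Kat2a (2.56), Actl6a (1.52) and Ep400 (0.77) were higher too. Lower were the acetyltransferase genes Ep300 (-1.32) and Crebbp (-1.20) and the elongation kinase gene Cdk9 (-0.72). Crebbp did not pass with the mean of its probe sets (-0.30, limma adjusted p = 0.51; range over alternatives 2.6e-04 to 0.51). Scaled by the hybridization controls, 3 genes of the list were higher and 11 lower.

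MYC proteins are short-lived, and of 19 tested genes for their turnover 5 were higher and 1 lower, with a median of 0.24. The share that passed was 31.6%, under the 43.4% of all genes. Trim32 (3.04), the nucleolar deubiquitinase gene Usp36 (1.99), the phosphatase inhibitor gene Set (1.58), Skp2 (1.56) and Huwe1 (2059 and 2474 against 1176 and 1047) were higher. Ppp2r5a, a phosphatase subunit gene, was lower, with -1.79. Fbxw7, which encodes the main ubiquitin ligase adaptor for MYC, did not pass (0.33, SE 0.29, limma adjusted p = 0.40). Under the control scaling 1 gene of this list was higher and 11 lower, and Usp36 did not pass (limma adjusted p = 0.0997; range over alternatives 6.6e-04 to 0.0997). Of 11 tested binders of Myc RNA and regulators of the Myc gene, 8 were higher and none lower, with a median of 1.14. Fubp3, of the family that binds the far upstream element of Myc, read 1568 and 2217 against 107 and 35.0. The fetal RNA-binding protein gene Igf2bp3 read 798 and 642 against 116 and 232 and was higher by 2.02 (SE 0.38). Without mature replicate 2 another of its probe sets was the brightest, and the value was 3.94. Igf2bp3 did not pass with the hybridization controls (limma adjusted p = 0.13; range over alternatives 6.9e-04 to 0.13), where 1 gene of the list was higher and 2 lower. The count of 8 was 4 without leukemic replicate 1, 4 without leukemic replicate 2 and 4 with equal medians.

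Other leucine zipper factors that read E-boxes went both ways. Tfap4, a known MYC target, read 149 and 153 (leukemic) against 10.1 and 43.2 (mature), a fitted difference of 2.09 (SE 0.56). Its call was lost without leukemic replicate 1, without leukemic replicate 2 and with the hybridization controls. The lipid synthesis regulator gene Srebf1 was higher by 0.83 (SE 0.23). It turned to -0.49 with the hybridization controls and lost its call without either leukemic array, with equal medians and without a variance trend (limma adjusted p up to 0.26; range over alternatives 0.020 to 0.26). The lysosome regulator gene Tfeb (-1.78, SE 0.33) and Mitf (-1.77, SE 0.39) were lower. Mitf did not pass with the mean of its probe sets (0.064) or without leukemic replicate 1 (limma adjusted p = 0.063; range over alternatives 8.3e-04 to 0.064). The other 5 of 9 did not pass, and with the hybridization controls none of the 9 was higher and 7 were lower. In the parallel branch around MLX, which senses glucose, Mlx (-0.88, SE 0.26) and its target Txnip (-1.09, SE 0.22) were lower and the other 2 tested did not pass. Without leukemic replicate 2 neither passed, with limma adjusted p = 0.27 for Mlx (range over alternatives 6.5e-04 to 0.27) and 0.059 for Txnip (range over alternatives 2.9e-04 to 0.059). All 4 tested were lower with the hybridization controls. Mlx also did not pass without leukemic replicate 1 (0.078), without mature replicate 2 (0.065) or without a variance trend (limma adjusted p = 0.061).

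Genes that MYC proteins are known to raise were mostly higher in leukemic marrow. Of 26 nucleolar genes tested 25 were higher and none lower, with a median of 2.91 against 0.28 for all genes. Rrp9, a component of nucleolar RNA particles, read 658 and 844 (leukemic) against 40.4 and 32.8 (mature). Nop58, a core protein of such particles, read 2963 and 2318 against 159 and 200 (3.76, SE 0.27). Imp4 did not pass (0.70, limma adjusted p = 0.079). Under the control scaling 18 of 26 were higher and none lower, with a median of 1.59. The list's direction is part of what is known of these data from earlier work on them, and it is no independent support.

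Of 29 metabolic genes tested 25 were higher and 2 lower, with a median of 2.41. Nme1, a nucleoside diphosphate kinase gene, read 11061 and 8888 (leukemic) against 269 and 430 (mature), higher by 4.80 (SE 0.29). Without leukemic replicate 1 another of its probe sets was the brightest, and the value was 3.04. Slc7a5, which encodes a carrier of large amino acids, read 1016 and 1033 against 17.7 and 55.7 (4.40, SE 0.43). Hk2, which encodes a hexokinase, read 1300 and 663 against 4886 and 3968 and was lower, with -2.23 (SE 0.35). The pyruvate kinase gene Pkm read 7526 and 4187 against 15553 and 17574, with -1.56 (SE 0.32). The lactate dehydrogenase gene Ldha did not pass (0.12, SE 0.27), nor did Mthfd2 (-0.18, SE 0.25). Those 2, the only ones of the list that did not pass, were named after their values were seen. With the hybridization controls 16 genes of the list were higher and 4 lower.

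Of 11 translation factor genes tested 8 were higher and none lower, with a median of 1.00. Eif3b was higher by 2.03 (SE 0.26) and Eef1d by 1.72 (SE 0.30). The calls of this list were lost with the hybridization controls, where none was higher and 1 was lower. Eif3b then had limma adjusted p = 0.053 (range over alternatives 6.3e-05 to 0.053) and Eef1d 0.29 (range over alternatives 2.5e-04 to 0.29). Without leukemic replicate 1, without leukemic replicate 2 and with equal medians 5 of the list passed.

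Of 20 cell cycle genes tested 11 were higher and 2 lower, with a median of 1.01. Cdk4, the partner of D-type cyclins, read 7346 and 7389 against 878 and 567 (3.35, SE 0.27). The Polycomb gene Bmi1 read 3445 and 3515 against 626 and 624 (2.45, SE 0.22). Id2, an inhibitor of E proteins, was lower with -2.07 (SE 0.38), as was E2f2 with -1.68 (SE 0.34). With the hybridization controls 2 of the list were higher and 8 lower, where 1029 of all 12409 genes were higher and 6104 lower.

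Of 15 genes that MYC proteins are known to repress, 10 were lower and 3 higher, with a median of -1.54. Klf2, which encodes a factor of resting cells, read 681 and 484 (leukemic) against 11929 and 7087 (mature). Cebpd, a factor of granulocytes and monocytes, read 2267 and 1192 against 20537 and 14503 (-3.38, SE 0.35). The cell cycle inhibitor genes Cdkn2b and Cdkn1a ran the other way. Cdkn2b read 1037 and 2161 against 18.1 and 20.5, a fitted difference of 5.43 (SE 0.43) that ran from 4.23 to 6.21 with the pseudocount. Cdkn1a was higher by 3.14 (SE 0.47). Ndrg2 had a fitted difference of 3.76 (SE 0.49), which ran from 2.47 to 4.90 with the pseudocount. With the hybridization controls 3 of the list were higher and 11 lower.

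**Figure D4:**
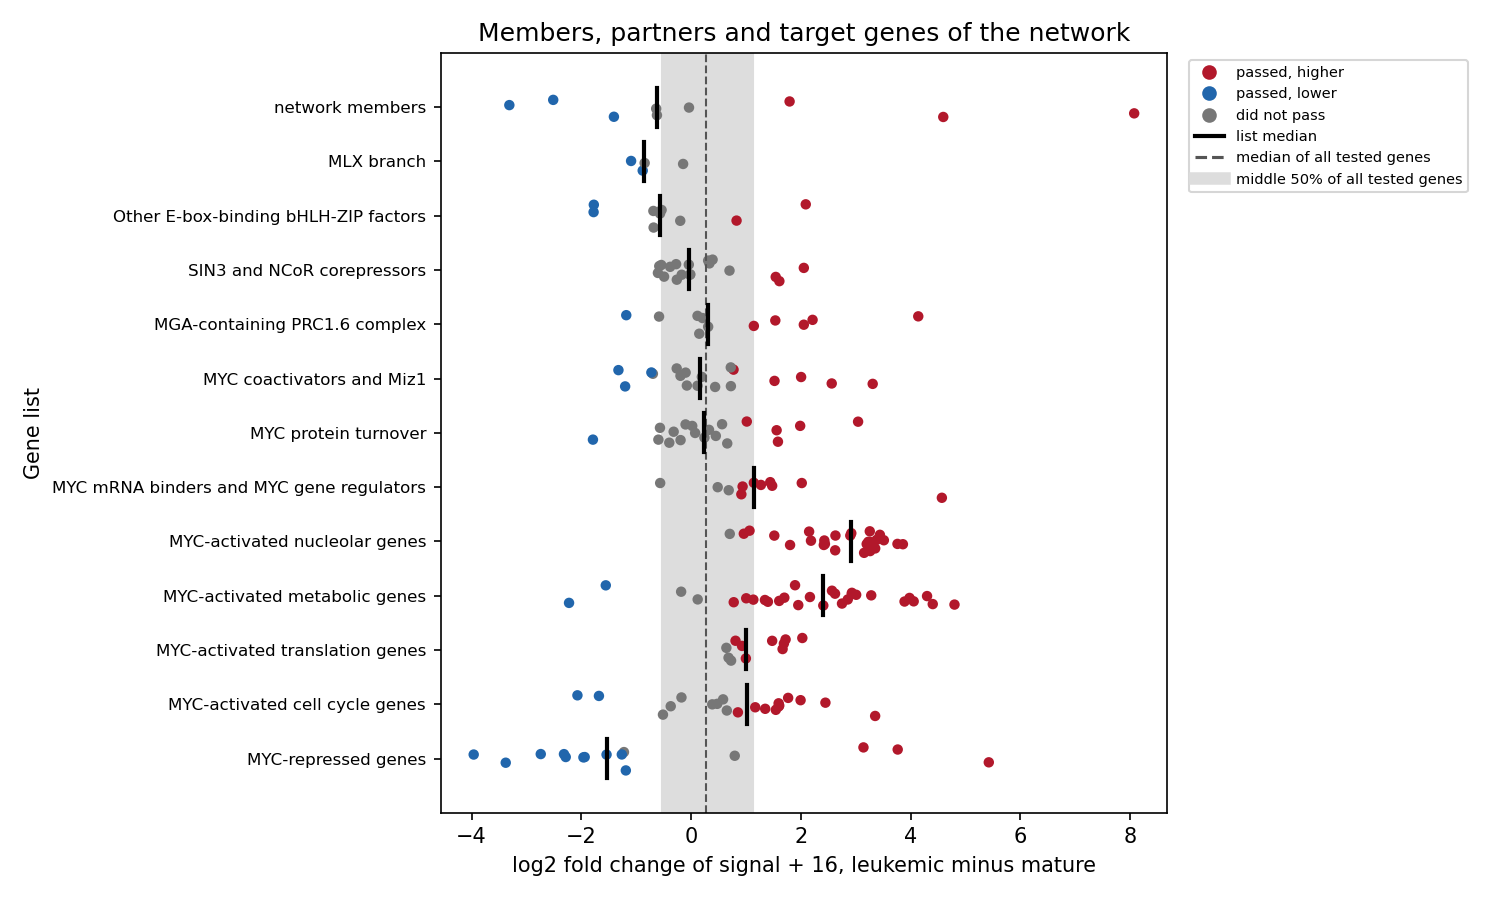
Log2 fold change of signal + 16, leukemic minus mature, with 1 point per tested gene, for the 9 tested members and 12 lists of partners and targets. Black bars are list medians, the dashed line is the median of all 12378 genes and the grey band their middle 50%, from -0.52 to 1.13. The nucleolar list lies highest with a median of 2.91 and the repressed list lowest with -1.54.

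The genes whose log2 values over the 4 arrays, centred on their mean, lay nearest to a member's were listed for the members with the largest changes. For Mycn they were Septin8 (distance 0.50 on the log2 scale), Zfp503 (0.63) and Fabp7 (0.64). For Myc they were Bhlhb9 (0.09), Tsr1 (0.25) and Pcbd1 (0.27), and for Mxd1 they were Plaur (0.07), Slc36a4 (0.09) and Card6 (0.20). With 4 arrays in 2 groups such a distance mostly reflects a like fold change. Septin8 (20.2 and 2.47), Fabp7 (2.28 and 8.86) and Pcbd1 (25.7 and 9.65) had mature signals under the filter of 47.6. Like Mycn, they were tested through their leukemic arrays alone, so their places here are descriptions.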

How the data were processed

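The authors made the values with MAS5 in GCOS 1.3.0, per the submitters' processing notes, and deposited a linear intensity (MAS5 signal) per probe set and array. No source used here states the target or settings. The mean after trimming 2% at each end was 500.003 or 500.004 on every array, so arrays share a target. The median signals were 80.9 and 85.4 in leukemic and 59.1 and 74.8 in mature arrays.

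Signals were taken as log2(signal + 16) without further scaling, 64 control probe sets were dropped, and the dimmest 40% by mean over arrays were left out. Symbols came from the platform annotation (34945 probe sets with 1 gene, 932 with several, 9160 with none), and 34741 were found by gene ID in a RefSeq table of assembly GRCm38.p6, which also gave promoter sequences. limma 3.58.1 in R 4.3.3 compared the groups (lmFit, eBayes with trend, two-sided; 2 residual degrees of freedom, 6.90 after moderation), over genes by brightest probe set and over all kept probe sets. The fit was tested on simulated data. Members, lists and tests were chosen with earlier results of these data known. Named were all members, in each list the 2 largest called changes in each direction, Itgam, and the 3 nearest profiles of the 3 called members with the largest change. Alternatives changed the pseudocount (1, 64), filter (none, 60%), scaling, probe set rule, variance model and arrays, or added a replicate block. Figures used matplotlib 3.10.9 in Python 3.11.15.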

Additional observations from a re-analysis of the deposited data

How the results depend on the processing

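Of 143 values of the members under the alternatives, 134 kept direction and side of the threshold, 1 lost and 5 gained a call and 3 changed sign. Of 320 values of member probe sets 285 kept both, and of 192 list counts 172 stayed within 1.5 times. The count of 6 changed members ranged from 5 (of 8 tested, where the suffix rule left out the probe set of Myc) to 8, and that of 11 member probe sets was 17 with the hybridization controls, where 3 were higher and 14 lower. Leaving out 1 array gave 2812 to 5499 changed genes of all, the lowest without leukemic replicate 2, with 6 to 7 changed members. The split of all changed genes was 63.3% higher, 49.4% with equal medians and 14.4% with the hybridization controls, and of the pathway genes 81% higher and 38.5% with the controls. With the hybridization controls Srebf1 changed sign to -0.49 and 1422575_at (Mxd4) to -0.088, and Mxd4 did so with the mean of its probe sets, at 0.065. With 1 array left out, values that had not passed also changed sign, and the lone array is then assumed to vary like the other group. Mxd4 ranged from -0.58 to 0.50, as did its probe set 1434378_a_at, while 1434379_at (Mxd4) ranged from -0.75 to 0.56. 1422646_at (Mga) ranged from -0.24 to 0.19, 1425922_a_at (Mycn) from -0.65 to 0.47 and 1448878_at (Mxd3) from -0.47 to 0.17. Over all genes tested, arrays with the same replicate number did not deviate together (correlation -0.03). With 2 arrays a group such a correlation cannot exclude a pairing that touches some genes. With the replicate block 5562 genes changed in place of 5375, 6 members in place of 6 and 12 member probe sets in place of 11. Signals near the filter, such as Mycl and the mature Mycn arrays, are too dim to rank.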
